A study of Mus musculus with 12 samples.

Results

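The RNAs described here encode a Notch ligand (Jag1), 3 Notch receptors (Notch1, Notch2, Notch3), the repressors Hes1 and Hey1, and the inhibitors of DNA binding Id1, Id2 and Id3, as recovered with an antibody to CPEB4 from mouse adipocytes. They are the 9 rows with these gene symbols among the 20586 3′ UTR features of a count table, 1 feature per gene, and 5 of them (Jag1, Notch1, Notch2, Hes1 and Id1) were among the 8680 features with enough counts to be tested. The genes were selected on their pathway with earlier results of these libraries known (the levels in CPEB4 IP, IgG IP and Input), so their differences between the groups are given as values with standard errors and without a p-value. CPEB4 recognises sequence elements in mRNAs and recruits factors that lengthen or shorten their poly(A) tails. Cells of the mouse preadipocyte line 3T3-L1 were taken to day 8 of adipogenic differentiation and exposed to free fatty acids for 24 h. All 12 libraries share this line and treatment: induction with rosiglitazone (2 µM), insulin (10 µg/mL), dexamethasone (1 µM) and IBMX (0.5 mM) until day 2, insulin afterwards, and a fatty acid mixture of 500 µM in total with palmitic acid at 300 µM, oleic acid at 100 µM and linoleic acid at 100 µM. The groups differ in what was sequenced: total RNA of the lysate (Input), RNA pulled down by a control antibody (IgG IP) and RNA pulled down by the CPEB4 antibody (CPEB4 IP), with 4 libraries each. Only Input was poly(A)-selected, so a difference from Input cannot be told apart from a difference in selection. No cells without the fatty acids or without CPEB4 were among these libraries.

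Notch receptors are activated by ligands of the Jagged and Delta families on neighbouring cells. Cleavage by ADAM proteases and γ-secretase then frees the intracellular part of the receptor, which joins the DNA-binding protein RBPJ and a Mastermind coactivator and switches on HES and HEY genes. HES and HEY proteins are basic helix-loop-helix repressors. ID proteins have the helix-loop-helix part without the DNA-binding basic part and hold E proteins away from DNA. Notch signalling and ID proteins are both known to take part in the control of adipocyte differentiation.

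Counts per library ranged from 858028 to 1578084 in Input, from 88013 to 622976 in IgG IP and from 1114911 to 1159188 in CPEB4 IP. Levels are given as counts per 1e6 (CPM) of the library size scaled by TMM, that is, as shares of a library and not as amounts of RNA recovered. A floor of 3 counts corresponded to 1.95 to 3.04 CPM in an Input library, 2.36 to 2.84 CPM in CPEB4 IP and 9.09 to 23.7 CPM in IgG IP, so low levels were least measurable in IgG IP. Intervals and floors cover counting error only. Input replicate 3 stood apart: it correlated with the other Input libraries at r = 0.550 to 0.649 (log2 CPM across features), against 0.753 to 0.878 among the other 3. At 1021 features it held 10 counts or more where the other 3 Input libraries held none, against 179, 44 and 440 features for Input replicates 1, 2 and 4 and at most 2 for any precipitate. The library numbers fall into 2 series, 726 to 731 for replicates 1 and 2 and 393 to 398 for replicates 3 and 4, and the labels do not say what separates them or whether replicates came from separate cultures. P-values therefore measure the spread between these libraries, which may be technical. All 6 adipocyte markers (such as Adipoq, Fabp4 and Plin1) were counted in every group, with a summed level of 10382 to 17817 CPM in Input, 12809 to 21418 CPM in IgG IP and 18759 to 21726 CPM in CPEB4 IP. The 5 markers of preadipocytes or fibroblasts summed to 1002 to 1828 CPM in Input, 182 to 552 CPM in IgG IP and 126 to 260 CPM in CPEB4 IP. Those of macrophages summed to 15.7 to 61.7 CPM in any library, with Adgre1 and Ptprc at 0 in Input and Adgre1 at 0 in CPEB4 IP, and those of endothelium to 0 to 29.3 CPM, with Tek at 0 in Input. In bulk samples, fewer cells of a type and less RNA per cell cannot be told apart.

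**Figure D1:**
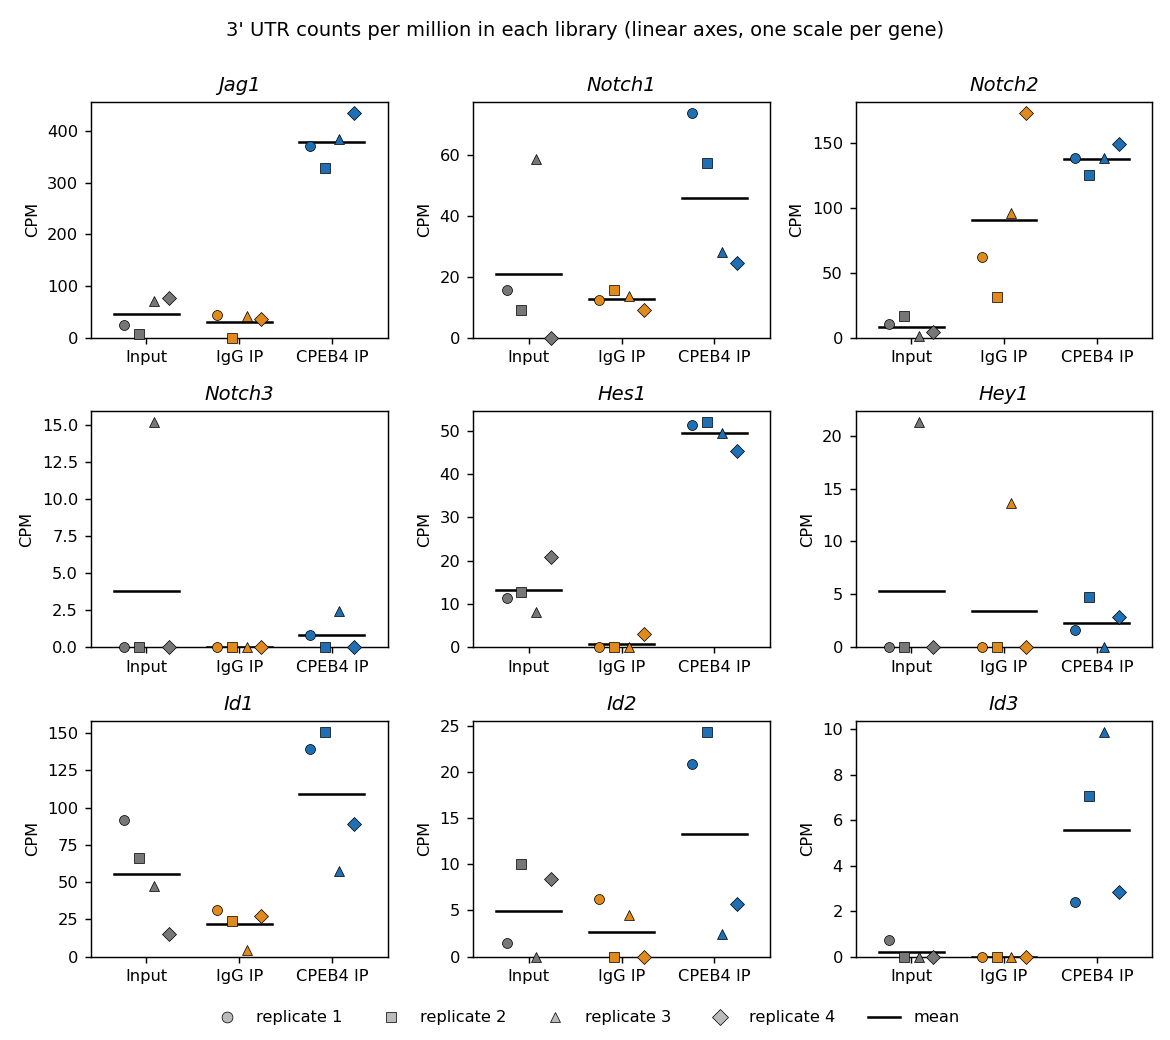
Level of each of the 9 genes (CPM, linear axis from 0, 1 scale per gene) in the 4 libraries of Input, IgG IP and CPEB4 IP; symbols mark the replicate and bars the mean. Jag1, Hes1 and Id1 lie above all IgG IP libraries in every CPEB4 IP library, whereas Notch2 in IgG IP replicate 4 (173 CPM) lies above all 4 CPEB4 IP libraries.

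Jag1, a membrane ligand of Notch receptors, had the highest mean level per length of these RNAs in CPEB4 IP, where its range overlapped that of Id1. Its 3′ UTR (ENSMUST00000028735, mm10 chromosome 2, 137081456 to 137083023, 1568 bases, minus strand) stood at 24.7, 7.28, 71.9 and 76.9 CPM in Input replicates 1 to 4. In IgG IP it stood at 43.4, 0, 41.0 and 36.4 CPM, from 7, 0, 9 and 12 counts. In CPEB4 IP it stood at 371, 328, 383 and 434 CPM, from 462, 417, 465 and 459 counts. Every CPEB4 IP library lay above every library of both other groups, a pattern shared by 14.7% of tested features, while Input and IgG IP overlapped. The means were 45.2 ± 34.5 CPM in Input, 30.2 ± 20.4 CPM in IgG IP and 379 ± 43.7 CPM in CPEB4 IP (SD, n = 4). The log2 fold change of CPEB4 IP over IgG IP was 3.57 (SE 0.68), an 11.9-fold difference, and that over Input was 3.06 (SE 0.62). IgG IP differed from Input by -0.50 (SE 0.67), less than its standard error. At the CPEB4 IP level the IgG IP libraries would have held 317 Jag1 counts in all, and they held 28.

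Of the receptors, Notch2 was recovered in both precipitates at levels far above Input. Its 3′ UTR (ENSMUST00000079812, mm10 chromosome 3, 98147445 to 98150367, 2923 bases, plus strand) stood at 10.5, 16.4, 1.01 and 4.56 CPM in Input replicates 1 to 4. In IgG IP the values were 62.05, 31.6, 95.7 and 173 CPM, and in CPEB4 IP 138, 125, 139 and 149 CPM. Both precipitates lay above all Input libraries, and the IgG IP libraries spread around the narrow range of CPEB4 IP. The log2 fold change over Input was 4.06 (SE 0.63) for CPEB4 IP and 3.51 (SE 0.63) for IgG IP. CPEB4 IP over IgG IP came to 0.55 (SE 0.56), with 92 counts observed in IgG IP where the CPEB4 IP level would have given 115. Without Input replicate 3, which held 1 Notch2 count, the log2 fold changes over Input were 3.25 (CPEB4 IP) and 2.84 (IgG IP). By size of the log2 fold change, Notch2 ranked 312th of 8680 features for IgG IP over Input, 391st for CPEB4 IP over Input and 3459th for CPEB4 IP over IgG IP.

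Notch1 was higher in every CPEB4 IP library than in every IgG IP library, on few counts. Its 3′ UTR (ENSMUST00000028288, mm10 chromosome 2, 26457903 to 26459530, 1628 bases, minus strand) held 21, 10, 58 and 0 counts in Input replicates 1 to 4, or 15.7, 9.10, 58.7 and 0 CPM. IgG IP held 2, 2, 3 and 3 counts (9.09 to 15.8 CPM), and CPEB4 IP held 92, 73, 34 and 26 counts (73.8, 57.4, 28.0 and 24.6 CPM). CPEB4 IP overlapped Input only through Input replicate 3, and CPEB4 IP replicate 1 was the highest library of all. The log2 fold change over IgG IP was 1.88 (SE 1.03) and that over Input 1.15 (SE 0.89). Over Input it was 1.95 (SE 0.81) without Input replicate 3 and -0.14 (SE 1.70) within replicates 3 and 4 alone. RefSeq places a second gene, 0610009E02Rik, over this stretch, so reads of both cannot be told apart if counting ignored strand, which the sources used here do not give.

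Notch3 was hardly detected. Its feature (ENSMUST00000087723, mm10 chromosome 17, 32120820 to 32121819, 1000 bases, minus strand, overlapped by Gm38585 in RefSeq) held 15 counts in Input replicate 3 and none in the other 3 Input libraries. CPEB4 IP held 1, 0, 3 and 0 counts and IgG IP none. It was not tested, and no fold change is given. Input and CPEB4 IP each had libraries at 0, and no group lay apart from another.

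Hes1, the repressor most often used as a readout of Notch signalling, was the tested gene with the least signal in the control precipitate relative to CPEB4 IP. Its 3′ UTR (ENSMUST00000023171, mm10 chromosome 16, 30067429 to 30067796, 368 bases, plus strand) held 15, 14, 8 and 32 counts in Input replicates 1 to 4 (11.2, 12.7, 8.10 and 20.8 CPM). IgG IP held 0, 0, 0 and 1 count. CPEB4 IP held 64, 66, 60 and 48 counts (51.4, 51.9, 49.5 and 45.4 CPM), above all other libraries and close to each other. The IgG IP libraries lay below all Input libraries, a pattern shared by 22.7% of tested features. With 238 counts in CPEB4 IP against 1 in IgG IP, the ratio per scaled library size was 41.6, with an exact 95% interval of 7.40 to 1651. Input over IgG IP gave a ratio of 11.7 (2.02 to 467). The fitted log2 fold change over IgG IP, 5.29 (SE 0.91), depends on the prior count and was the 22nd largest of all features. CPEB4 IP over Input, where both groups were well counted, gave 1.89 (SE 0.58), or 1.28 (SE 0.49) without Input replicate 3. At the CPEB4 IP level the IgG IP libraries would have held 41.5 counts.

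Hey1, a repressor of the same class, had too few counts for a comparison. Its feature (ENSMUST00000042412, mm10 chromosome 3, 8663362 to 8664495, 1134 bases, minus strand) held 21 counts in Input replicate 3 and none in the other 3, 3 counts in IgG IP, all in replicate 3, and 2, 6, 0 and 3 counts in CPEB4 IP. CPEB4 IP over IgG IP gave a ratio of 0.641 with an interval of 0.169 to 3.58, so no difference was detectable at this depth in either direction.

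Id1, which binds E proteins, stood at a higher level in CPEB4 IP than in the control precipitate and overlapped Input. Its 3′ UTR (ENSMUST00000109824, mm10 chromosome 2, 152736848 to 152737410, 563 bases, plus strand) stood at 91.4, 66.4, 47.6 and 14.98 CPM in Input replicates 1 to 4. In IgG IP the values were 31.0, 23.7, 4.56 and 27.3 CPM, from 5, 3, 1 and 9 counts. In CPEB4 IP they were 140, 151, 57.7 and 88.9 CPM, from 174, 192, 70 and 94 counts. All CPEB4 IP libraries exceeded all IgG IP libraries, and Input replicate 1 exceeded CPEB4 IP replicates 3 and 4. The log2 fold change over IgG IP was 2.34 (SE 0.64), a 5.08-fold difference. Over Input it was 0.99 (SE 0.54), or 0.41 (SE 0.56) without Input replicate 3, within its standard error. IgG IP differed from Input by -1.36 (SE 0.63).

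Id2, a relative of Id1 with the same mode of action, was counted at low levels in CPEB4 IP, mainly in replicates 1 and 2. Its feature (ENSMUST00000020974, mm10 chromosome 12, 25093801 to 25094576, 776 bases, minus strand) held 26, 31, 3 and 6 counts in CPEB4 IP replicates 1 to 4. Input held 2, 11, 0 and 13 counts, and IgG IP held 1, 0, 1 and 0. The ratio of CPEB4 IP to IgG IP was 5.77, with an interval of 1.54 to 48.7. The libraries of all 3 groups overlapped.

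Id3 was measured over only 23 bases (ENSMUST00000008016, mm10 chromosome 4, 136144354 to 136144376, plus strand), in a feature that ends 1016 bases before the 3′ end of the gene in RefSeq. CPEB4 IP held 3, 9, 12 and 3 counts of it, Input 1, 0, 0 and 0, and IgG IP none. Against a floor of 3 counts over the IgG IP group, CPEB4 IP was at least 1.57-fold higher, and over Input the ratio was 28.0 (4.61 to 1145). Each CPEB4 IP library lay above each library of the other groups. Against IgG IP this is a weak contrast, because at the CPEB4 IP level its libraries would have held 4.65 Id3 counts in all. The other 8 features end within 5 bases of the 3′ end of their RefSeq gene (GRCm38.p6), and no other feature of the table overlaps any of the 9.

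**Figure D2:**
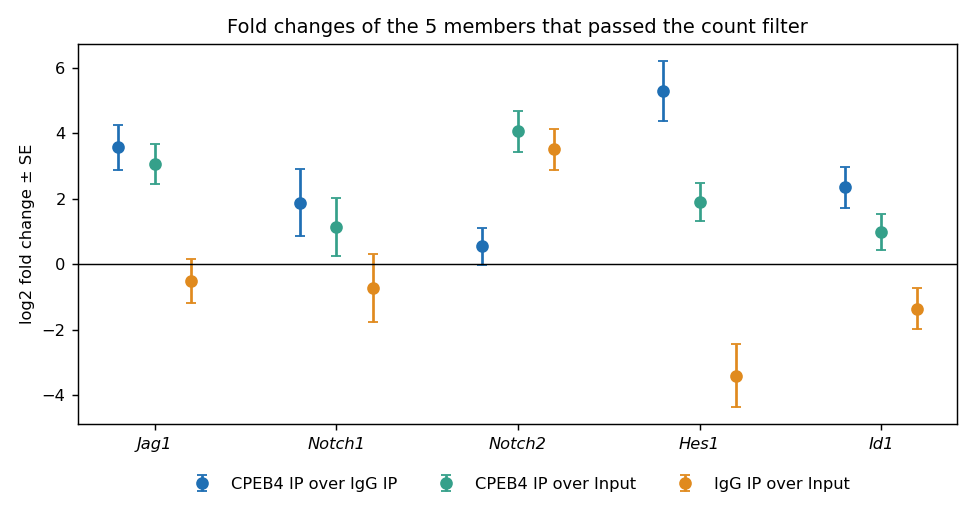
Log2 fold changes with standard errors (vertical axis) of the 5 tested genes for CPEB4 IP over IgG IP, CPEB4 IP over Input and IgG IP over Input. Notch2 has its change in IgG IP over Input (3.51) and little between the precipitates (0.55), and Hes1 the reverse sign in IgG IP over Input (-3.40).

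Set side by side, these genes did not share 1 pattern. In 5 of the 9 (Jag1, Notch1, Hes1, Id1 and Id3) every CPEB4 IP library lay above every IgG IP library, and 4 of these 5 were tested features. Id3, not tested, was set against IgG IP libraries at 0, where its CPEB4 IP level would have given 4.65 counts in all. Among all tested features the share was 23.2%. In 4 of the 9 (Jag1, Notch2, Hes1 and Id3), of which 3 were tested features, every CPEB4 IP library lay above every Input library. Among all tested features the share was 30.9%. In Jag1, Hes1 and Id3 every CPEB4 IP library lay above all 8 other libraries, as in 14.7% of tested features. In the quasi-likelihood test of edgeR with p adjusted by Benjamini-Hochberg, 5.88% of features passed an adjusted p of 0.05 for CPEB4 IP over IgG IP (4.57% higher, 1.30% lower), and Hes1, Jag1 and Id1 were among those higher. For CPEB4 IP over Input 53.9% passed (27.6% higher, 26.3% lower), with Hes1, Jag1 and Notch2 among those higher, and for IgG IP over Input 41.4% passed (17.5% higher, 23.9% lower), with Notch2 higher and Hes1 lower. Nothing is read from these calls or their loss below, because the genes were picked with the contrasts known. The Id1 call over IgG IP was met in 9 of 27 alternative settings. The single libraries whose removal ended it are only part of the settings that lost it. These were any 1 of the 4 IgG IP libraries (log2 fold change 1.97 to 2.55), CPEB4 IP replicate 1, 2 or 4 (1.98 to 2.43) and Input replicate 2 (2.15). The Jag1 call was lost without replicate 1 (3.63) or 4 (3.58) of all groups, and the Hes1 call without replicate 1 (4.89) or 2 (5.05). In replicates 3 and 4 alone 0 features passed, so each of these calls was lost there too. Over Input, the Hes1 call in CPEB4 IP was lost without replicate 1 (1.51) or 2 (1.84) of all groups and without CPEB4 IP replicate 1 (1.52) or 2 (1.50). It was also lost with no filter on low counts (1.72) and in replicates 3 and 4 alone (1.69). The lower Hes1 call in IgG IP over Input rests on 1 IgG IP count. It was lost with only these 2 groups fitted (-3.49), in replicates 1 and 2 alone (-6.65) and in replicates 3 and 4 alone (-2.96). The authors' deposited table, which tests the interaction of both precipitates with Input by DESeq2, gives log2 fold changes of 4.67 (SE 1.22) for Hes1, 3.30 (SE 1.01) for Jag1 and 2.03 (SE 0.97) for Id1, each with a call of 1. The same authors' deposited table gives 1.52 (SE 1.68) for Notch1 and 0.31 (SE 1.01) for Notch2, with a call of 0. These calls come from the same counts and are no separate support.

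The scaling of the libraries shifts all fold changes of a comparison together. The median log2 fold change of all tested features for CPEB4 IP over IgG IP was 0.24 with TMM, -0.03 with DESeq2's size factors, 0.53 with library totals and -0.24 with totals that leave out the Lars2 feature, which held 28.6% to 63.9% of the counts in IgG IP. Relative to that median, Jag1 was higher by 3.32 to 3.43 on the log2 scale, Hes1 by 5.04 to 5.31, Id1 by 2.07 to 2.10, Notch1 by 1.61 to 1.67 and Notch2 by 0.31 to 0.49 under these 4 scalings. For IgG IP over Input, Jag1 stood at -0.50 with TMM and at 0.07 with totals that leave out Lars2, where the median feature moved from -0.07 to 0.55.

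**Figure D3:**
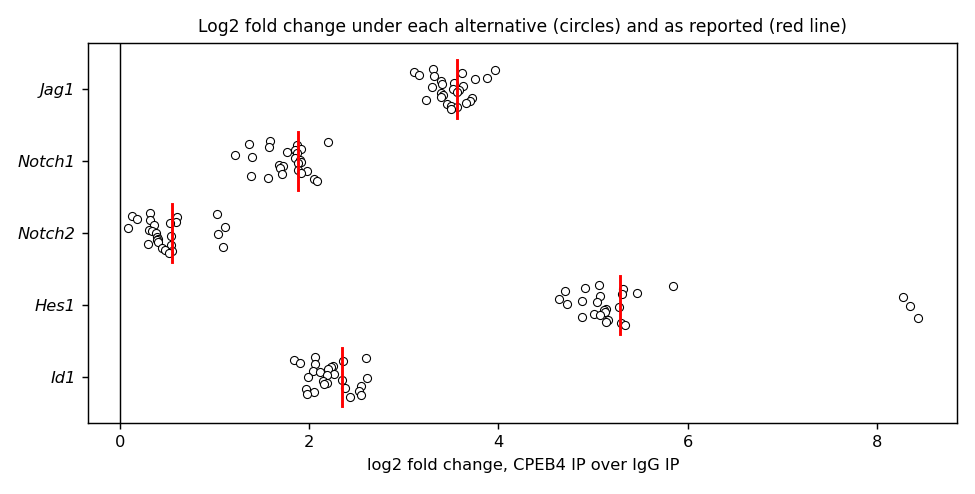
Log2 fold change of CPEB4 IP over IgG IP (horizontal axis) for the 5 tested genes under each alternative setting (circles) and as reported (red line). The values span 3.11 to 3.96 for Jag1, 1.22 to 2.20 for Notch1, 0.09 to 1.12 for Notch2, 4.65 to 8.43 for Hes1 and 1.84 to 2.61 for Id1.

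Levels of different genes were compared per kb of 3′ UTR, leaving out Id3 with its 23 bases. In CPEB4 IP the order was Jag1 (242 ± 27.9 CPM per kb, SD, n = 4), Id1 (194 ± 77.7), Hes1 (135 ± 8.00), Notch2 (47.1 ± 3.29), Notch1 (28.2 ± 14.6), Id2 (17.2 ± 14.0), Hey1 (2.02) and Notch3 (0.819). The ranges of neighbours overlapped throughout except between Hes1, whose lowest library stood at 123 CPM per kb, and Notch2, whose highest stood at 50.8 CPM per kb. In Input the order began with Id1 (97.9 CPM per kb), Hes1 (36.0) and Jag1 (28.8) and ended with Notch2 (2.77), and in IgG IP it began with Id1 (38.4) and Notch2 (31.0). All neighbours overlapped in Input and in IgG IP. Notch2 was thus last of 8 in Input, second in IgG IP and the fourth in CPEB4 IP, whereas Hes1 was second, the seventh and the third.

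**Figure D4:**
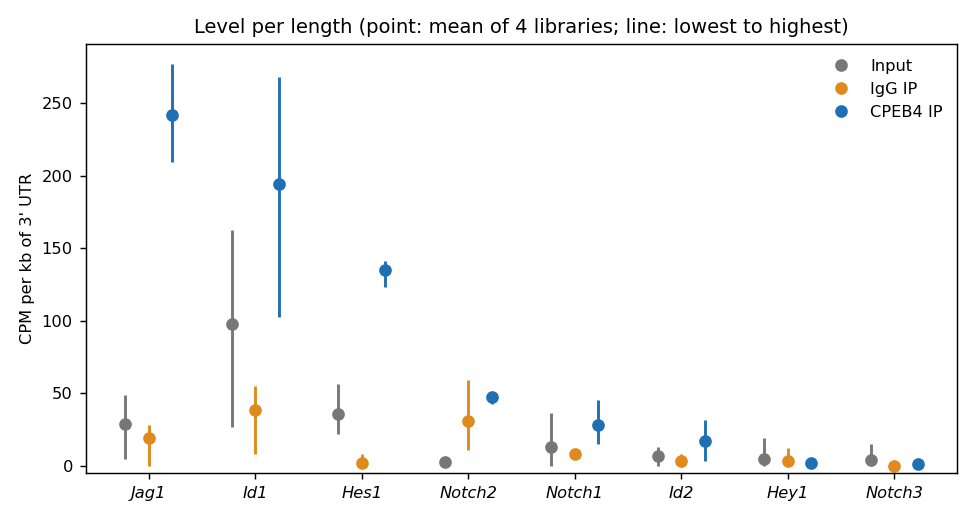
Level per length (CPM per kb of 3′ UTR, linear axis) of 8 genes in Input, IgG IP and CPEB4 IP; points are means of 4 libraries and lines run from the lowest to the highest library. Jag1, Id1 and Hes1 in CPEB4 IP (means 242, 194 and 135) lie apart from the other 5 genes.

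Feature length moved with the differences from Input. Across the 8680 tested features, which are not independent replicates, Spearman's rho of length with the log2 fold change was 0.591 for IgG IP over Input, 0.477 for CPEB4 IP over Input and -0.0146 for CPEB4 IP over IgG IP. The Notch2 feature is longer than 81.4% of tested features (median 1344 bases), and those of Hes1 and Id1 are longer than 14.4% and 22.4%. The part of length in the values of these genes over Input was not tested.

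The difference between CPEB4 IP and IgG IP was also taken within each library-number series. In replicates 1 and 2 against replicates 3 and 4, the log2 fold change was 3.88 and 3.41 for Jag1, 2.39 and 2.08 for Id1, 2.22 and 1.23 for Notch1, and 1.46 and 0.08 for Notch2. For Hes1 it was 8.51 and 4.63, the first against IgG IP libraries at 0, which makes it dependent on the prior count. The difference between the series, tested as an interaction by edgeR, passed the threshold at 0 of 8680 features (0% of features; 240 at an unadjusted p under 0.05, and 4 after adjustment when the precipitates alone were fitted). It came to 1.38 (SE 0.76) for Notch2 and 0.99 (SE 2.17) for Notch1 on the log2 scale, and the adjusted p was 0.99995 for each of the 5 genes. Within CPEB4 IP, the Notch1 and Id1 levels of replicates 1 and 2 each stood above those of replicates 3 and 4, by 1.31 (SE 1.23) and 0.99 (SE 0.60) on the log2 scale. In the fit of all 12 libraries their adjusted p was 0.965 and 0.824, where 0.0806% of features passed (0.0461% higher). In a fit of the 8 precipitate libraries alone, chosen after seeing the data, the differences were 1.27 (SE 0.30) and 0.96 (SE 0.23). In that fit 24.3% of all features passed (12.4% higher), Notch1 and Id1 among them, and nothing is read from these calls. Jag1, Hes1 and Notch2 differed by at most 0.23 on the log2 scale between the series of CPEB4 IP in the fit of all libraries.

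The features whose log2 CPM followed each gene most closely over the 12 libraries were taken from 4272 candidates. For Jag1 they were Siah1a (Pearson r = 0.952), Mfap3 (0.943), Brd3 (0.940), Ipmk (0.934) and Gpbp1l1 (0.930). For Notch2 they were Ctdsp2 (0.974), Ccdc71l (0.972), Aff4 (0.972), Alg10b (0.971) and Dab2ip (0.968), and for Id1 Selk (0.929), Tomm22 (0.929), Nfkbia (0.921), Sptssa (0.911) and Phc2 (0.899). Between the genes themselves r was highest for Hes1 with Jag1 (0.753) and Hes1 with Id1 (0.730), and lowest for Id1 with Notch2 (0.147) and Hes1 with Notch2 (0.149). These 12 points fall into the 3 groups and share libraries and depth, so the coefficients describe the pattern over groups and carry no p.

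Other genes of the pathway were listed by role, 75 in all, with earlier results of these data known. Of these, 74 were in the table and 49 were tested, and each adjusted p below is edgeR's with Benjamini-Hochberg adjustment over all 8680 features. For CPEB4 IP over IgG IP, 2 of the 49 were higher and none lower, or 4.08% against 5.88% of all features. Of the 49, 8 had an unadjusted p under 0.05 in the edgeR test, as did 1841 of all 8680 features. Other genes passed under other scalings and filters, while Hdac1 and Tcf3 stayed positive and Aes negative in every alternative that tested them. With DESeq2's size factors 0 were higher and 1 lower (Aes), or 2.04% against 5.46% of all features. With library totals that leave out Lars2, 0 were higher and 2 lower (Hif1an and Aes), or 4.08% against 6.22%. At a mean count of at least 50, which tested 22 of these genes, 0 were higher and the same 2 lower, or 9.09% against 21.1%. The median log2 fold change was 0.51, against 0.24 over all features. Hdac1, a histone deacetylase found in corepressor complexes, was higher by 2.91 (SE 0.82, adjusted p = 0.0475), with CPEB4 IP counts of 57, 59, 29 and 23 against 0, 0, 2 and 2 for the control. Tcf3, which encodes the E proteins E12 and E47 that ID proteins bind, was higher by 2.32 (SE 0.66, adjusted p = 0.0488), with CPEB4 IP counts of 122, 111, 61 and 51 against 2, 0, 7 and 3 for the control. Both lay at the threshold: Hdac1 passed in 6 and Tcf3 in 8 of 26 alternatives, and neither passed with DESeq2's size factors (2.67 and 2.05). With the replicate block neither passed either, at 2.78 (adjusted p = 0.0840) for Hdac1 and 2.27 (adjusted p = 0.0771) for Tcf3. With any 1 library of CPEB4 IP or IgG IP left out neither passed (adjusted p 0.0715 to 0.222), except Tcf3 without IgG IP replicate 3 (0.0422). Neither passed without Input replicate 2 (0.0713 and 0.0779) or 4 (0.0590 and 0.0750), nor Tcf3 without Input replicate 1 (0.0503). With 1 library or replicate left out the count of calls ran from 0 to 6, the 6 without Input replicate 3 (12.2% against 11.1% of all features). Of the abundant genes, the corepressor Aes differed by -1.39 (SE 0.40, adjusted p = 0.0533), the corepressor Tle3 1.07 (adjusted p = 0.134), the ubiquitin ligase Nedd4 0.51 (adjusted p = 0.371) and Mib1, the ligase that drives ligand endocytosis, 0.35 (adjusted p = 0.735). Aes passed, lower, in 11 of 27 alternatives (-1.83 to -0.998 over all 27), among them the replicate block (-1.34, SE 0.37, adjusted p = 0.0418).

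By role, none of the 10 receptor proteases, 4 glycosylation genes, 10 ubiquitination or endocytosis genes, 3 HES and HEY relatives or the ligand-like Dlk1 passed between the precipitates, 1 of 19 nuclear complex genes (Hdac1) did, and 1 of 2 E proteins (Tcf3). The Delta ligands, Jag2, Notch4, Hes5, Hey2 and Heyl were not tested. Dll4 and Notch4, named after their values were seen, held 35 and 22 counts in Input replicate 3 and none in the other Input libraries, as Notch3 and Hey1 did.

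**Figure D5:**
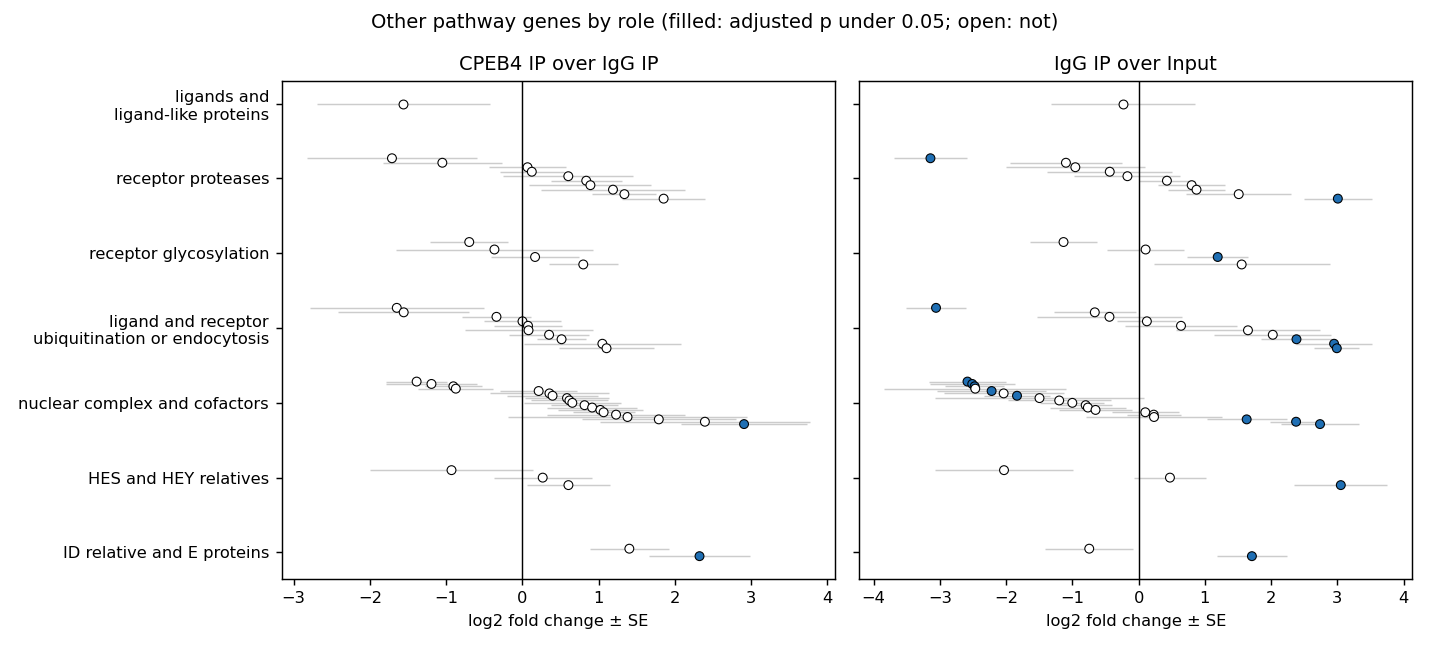
Log2 fold changes with standard errors (horizontal axis) of the 49 other tested pathway genes by role, for CPEB4 IP over IgG IP (left) and IgG IP over Input (right); filled points passed an adjusted p of 0.05. Between the precipitates 2 points are filled, and 17 are filled for IgG IP over Input.

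Over Input, many of the same roles differed in both directions. CPEB4 IP was higher than Input at 16 and lower at 12 of the 49 genes, or 57.1% against 53.9% of all features, with a median of 0.46 against 0.29. Higher were the receptor protease Adam10 (log2 fold change 3.84, adjusted p = 1.1e-05), Nedd4 (3.51, adjusted p = 7.22e-07), the DNA-binding partner of cleaved Notch, Rbpj (3.32, adjusted p = 0.000175), the HES-related repressor Bhlhe40 (3.32, adjusted p = 0.000771), Mib1 (3.30, adjusted p = 0.000168), the E protein gene Tcf12 (3.11, adjusted p = 0.000145) and Numbl, a relative of the Notch inhibitor Numb (2.70, adjusted p = 0.0317). Lower were the Deltex ligase Dtx2 (-3.40, adjusted p = 6.52e-06), the HES relative Hes6 (-2.96, adjusted p = 0.0182) and the γ-secretase subunit Psenen (-2.66, adjusted p = 0.0317). Hes6 did not pass with the replicate block (-2.55, adjusted p = 0.0515) or without CPEB4 IP replicate 3 (-2.78, adjusted p = 0.0550). Numbl passed in 14 and Psenen in 18 of 26 alternatives. Psenen did not pass without CPEB4 IP replicate 1, 2 or 4 (adjusted p 0.0577 to 0.0946), nor Numbl without Input replicate 3 or 4, IgG IP replicate 3 or 4, or CPEB4 IP replicate 1, 2 or 3 (adjusted p 0.0502 to 0.177). Dtx3l, Ctbp1, Bhlhe41 and Kat2b, the most abundant that did not pass, had log2 fold changes of 0.20, 0.37, 1.08 and 0.72.

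IgG IP was higher than Input at 10 and lower at 7 of the same 49 genes, or 34.7% against 41.4% of all features, with a median of -0.17 against -0.07. Without Input replicate 3 the count rose from 17 to 27, or 55.1%, and that of all features from 3594 to 4474, or 51.5%. Bhlhe40 (3.05, adjusted p = 0.00242), Adam10 (3.01, adjusted p = 0.000226), Nedd4 (2.99, adjusted p = 6.31e-06), Mib1 (2.95, adjusted p = 0.000692) and Rbpj (2.74, adjusted p = 0.00152) were higher in the control precipitate, as they were in CPEB4 IP against the same Input libraries. Psen2, the catalytic subunit of one form of γ-secretase, was lower (-3.14, adjusted p = 0.000324), followed by Dtx2 (-3.06, adjusted p = 6.58e-05), the acetyltransferase Kat2a (-2.58, adjusted p = 0.00214), the corepressor Spen (-2.51, adjusted p = 0.00513) and the cofactor Snw1 (-2.47, adjusted p = 0.000366), whose feature overlaps that of Slirp on the opposite strand. Aes, Tle3, Dtx3l and Ctbp1 did not pass, at -0.80, 0.23, 0.12 and -0.65. Without Input replicate 3, Ctbp1 (-1.28, adjusted p = 0.0297) and Aes (-1.06, adjusted p = 0.0342) passed, as did Aes without IgG IP replicate 3 (-1.27, adjusted p = 0.0370). Rbpj in CPM stood at 10.7 in Input, 72.1 in IgG IP and 111 in CPEB4 IP on average, and Adam10 at 9.2, 77.6 and 135, so that both precipitates lay above Input, as for Notch2.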

How the data were processed

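The authors deposited 1 table of raw read counts per library for 20586 3′ UTR features in mm10 coordinates, together with log2 normalised counts, their own DESeq2 log2 fold changes with standard errors, and a score per feature that calls it 1, 0 or -1, per the file headers. DESeq2 1.22.1, featureCounts, Bowtie2 2.2.2 and Bowtie 1.2.3 are named, with mm10, per the submitters' processing notes; the sequence of steps, annotation release and strand setting are not given in the sources used here. From the deposited counts, features were kept by filterByExpr (minimum count 10, minimum total 15), scaled by TMM and tested in R 4.3.3 with edgeR 4.0.16 in 1 quasi-likelihood fit of all 12 libraries with a coefficient per group, Benjamini-Hochberg adjustment over 8680 features and a threshold of 0.05. Standard errors are the log2 fold change divided by the square root of F, with a prior count of 0.125 in the fold changes. For groups with 1 to 3 counts, a ratio of scaled counts is printed beside an exact 95% interval. The fit was tested on simulated data. Features without a gene symbol (697, of which 193 were tested) entered library sizes and tests and were not named.

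The genes described were chosen with earlier results of these data known. The other pathway genes were listed by role and not by how they moved, with the same results known. Named among the other pathway genes were, per comparison, those past the threshold, up to the 10 with the largest change, and the 4 most abundant that did not pass; likeness was ranked for the 3 tested genes with the most counts in the precipitates. Motifs in the 3′ UTRs were planned but not analysed here. Groups and replicate numbers come from the sample titles. Same-numbered libraries deviated from their group means together at r = 0.181 to 0.321 between CPEB4 IP and IgG IP and 0.183 to 0.273 between CPEB4 IP and Input, all over 0.1. Between IgG IP and Input 1 of 4 pairs lay below 0.1 (0.0717 to 0.172). Different-numbered libraries of the same series also deviated together, such as CPEB4 IP replicate 2 with Input replicate 1 (0.285) and with IgG IP replicate 1 (0.213). Between CPEB4 IP and IgG IP, same-numbered pairs of replicates 1 and 2 stood at 0.321 and 0.181, against 0.213 and 0.131 for different-numbered ones. For replicates 3 and 4 the values were 0.320 and 0.287, against 0.256 and 0.224. Between Input and either precipitate, same-numbered and different-numbered pairs of a series overlapped. The check therefore does not settle how far the pairing by number goes beyond the library series. The main fit held no replicate block, which is given as an alternative. The labels do not say what a number marks. Library numbers run in sets of IgG IP, CPEB4 IP and Input per replicate, and the design text names 3 samples per experiment without stating a block. Alternatives were other scalings, count filters, DESeq2 1.42.0, a replicate block, the library series as a term, fewer groups, and leaving out replicates and libraries.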

Additional observations from a re-analysis of the deposited data

Results flagged for a closer look

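Of 33 groups of 4 libraries examined (the levels of each of the 9 genes in each group, library totals and Lars2 shares), 6 had 1 library farther from the rest than Dixon's 95% critical value allows. Chance alone flags about 1 in 20 groups of continuous values, but that rate does not hold for 5 of the 6, where the other 3 libraries were at 0 and any count is far enough; the other 1 is Jag1 in IgG IP. In Input replicate 3, Hey1 stood at 21.3 CPM and Notch3 at 15.2 CPM, with the other 3 Input libraries at 0. In IgG IP replicate 3, Hey1 stood at 13.7 CPM, from 3 counts, with the other IgG IP libraries at 0. Hes1 stood at 3.03 CPM in IgG IP replicate 4, from 1 count, with the others at 0. Jag1 stood at 0 CPM in IgG IP replicate 2, the shallowest library, with the others at 36.4 to 43.4 CPM. Id3 stood at 0.749 CPM in Input replicate 1, from 1 count, with the others at 0. Of these, 4 rest on at most 3 counts or on none.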

How the results depend on the processing

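With the replicate block, the log2 differences between the precipitates were 5.47 for Hes1, 3.88 for Jag1, 2.26 for Id1, 1.91 for Notch1 and 0.59 for Notch2, and 672 features and 2 other pathway genes called (Psen2 and Aes in place of Hdac1 and Tcf3). Over Input the block ended the call of Hes6 in CPEB4 IP, and of the results named for both CPEB4 IP comparisons it changed no other call. Features called for CPEB4 IP over IgG IP, 510 as reported, numbered 1003 with DESeq2's Wald test, 881 with the library series as a term, 2269 with only the 2 groups fitted and 0 in replicates 3 and 4 alone (1168 at an unadjusted p under 0.05). They ranged from 2 without replicate 1 to 966 without Input replicate 3. Calls that were higher, 77.8% of all, fell or rose to 54.0% with DESeq2's size factors, 93.7% with library totals and 35% with totals that leave out Lars2. Of the 49 other pathway genes, 2 were called in that comparison as reported. The count was 1 (2.04%) with DESeq2's size factors, no filter or replicates 1 and 2 alone, against 5.46%, 2.99% and 4.69% of all features. It was 5 (10.2%) with the Wald test or the series term, against 11.6% and 10.1%. With only the 2 groups it was 13 (26.5% against 26.1%), and in replicates 3 and 4 alone 0. Leaving out replicates or libraries gave 0 to 6, or 0% to 12.2%, where all features ran from 0.0230% to 11.1%. For CPEB4 IP over Input, a mean count of at least 50, which tests 3208 features and 22 pathway genes, gave 2482 features (77.4%) and 16 pathway genes (72.7%). Replicates 3 and 4 alone gave 16 of 49 genes, or 32.7% against 38.1% of all features. For IgG IP over Input the same filter gave 2230 features (69.5%). Leave-outs gave 13 to 27 of 49 genes, or 26.5% to 55.1%, where all features ran from 31.1% to 51.5%. The difference between library series had 4 features with only the 2 groups fitted. Features that differed within CPEB4 IP, 7 as reported, numbered 14 with library totals, 33 with no filter, 26 at a mean count of at least 50 and 2110 with the precipitates alone. Among tested results, signs turned for 4 pathway genes that did not pass; among the described genes, Notch1 over Input ranged from -0.14 to 2.50 in CPEB4 IP and from -1.36 to 0.59 in IgG IP, and Jag1 in IgG IP over Input from -0.95 to 0.38, and no other sign turned. Mib1 over IgG IP came to -0.0925 with totals without Lars2, -0.0412 at a mean count of at least 50 and -0.10 in replicates 3 and 4. Dtx3l in CPEB4 IP over Input came to -0.0302 with size factors, -0.0303 with the Wald test, -0.28 at a mean count of at least 50, -0.10 in replicates 3 and 4 and -0.0901 to 0.44 over leave-outs. Ctbp1 in the same comparison came to -0.17 at a mean count of at least 50, -0.76 in replicates 1 and 2 and -0.41 to 0.72 over leave-outs. For IgG IP over Input, Ctbp1 came to 0.52 in replicates 3 and 4 and to -2.69 in replicates 1 and 2, where it passed (adjusted p = 0.00467), Tle3 to -0.25 in replicates 1 and 2 and -0.17 to 0.66 over leave-outs, and Dtx3l to -0.17 with library totals, -0.0160 in replicates 3 and 4 and -0.24 to 0.54 over leave-outs. Apart from settings that test fewer features or libraries, the cause was not tested. IgG IP was the shallowest group, and Hes1, Id2, Hey1, Notch3 and Id3 held at most 3 counts each there. At the CPEB4 IP level the IgG IP libraries would have held 41.5, 11.2, 1.92, 0.686 and 4.65 counts of them.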
